A study of Mus musculus with 12 samples.

Results

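The miR-99/100 and miR-125 families were followed in the quadriceps of mice between birth and adulthood. They comprise 10 mature arms in the count table, chosen by name: mmu-miR-99a-5p, mmu-miR-99a-3p, mmu-miR-99b-5p, mmu-miR-99b-3p, mmu-miR-100-5p, mmu-miR-125a-5p, mmu-miR-125a-3p, mmu-miR-125b-5p, mmu-miR-125b-1-3p and mmu-miR-125b-2-3p. All 10 passed the filter on low counts, among 809 miRNAs tested and 1966 counted. Small RNA was sequenced from untreated wild-type C57BL/6J mice aged 1, 5, 14 or 90 days (named P1, P5, P14 and P90, the last being adults), with 3 mice and 3 libraries at each age. The study sequenced these ages to learn which miRNAs altered by loss of the splicing factor MBNL1 are developmentally regulated in muscle.

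A miRNA hairpin is cut into a 5p and a 3p arm, and one of them, the guide, is usually kept in Argonaute and pairs with messenger RNAs through its seed, bases 2 to 8. In both families the 5p arm is the abundant one. The families share 3 ancient hairpin clusters, in each of which a miR-99 or miR-100 hairpin, a let-7 hairpin and a miR-125 hairpin lie in that order. MiR-99 and miR-100 are known to target components of the mTOR pathway. MiR-125b, the mouse counterpart of worm lin-4, is known to target Lin28a and, in muscle cells, Igf2.

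The mature sequences (RefSeq, GRCm38.p6) are shown because the seeds define the groups that are compared, and because bases outside the seed separate near-identical members. The seed is in capitals. The last sequence is no member and is shown because it has the miR-125 seed.
mmu-miR-99a-5p: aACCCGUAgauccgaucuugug
mmu-miR-99b-5p: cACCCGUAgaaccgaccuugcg
mmu-miR-100-5p: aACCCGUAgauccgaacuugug
mmu-miR-125a-5p: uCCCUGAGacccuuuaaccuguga
mmu-miR-125b-5p: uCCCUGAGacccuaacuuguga
mmu-miR-99a-3p: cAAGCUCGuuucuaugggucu
mmu-miR-99b-3p: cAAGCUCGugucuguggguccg
mmu-miR-125a-3p: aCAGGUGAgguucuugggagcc
mmu-miR-125b-1-3p: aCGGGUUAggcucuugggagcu
mmu-miR-125b-2-3p: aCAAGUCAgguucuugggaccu
mmu-miR-351-5p: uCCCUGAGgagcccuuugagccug

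The 3 members of the miR-99/100 group had the seed ACCCGUA, and no other among the 1675 matched sequences had it. MiR-99a-5p and miR-100-5p differed at 1 base only, U16A, counted from the 5′ end of miR-99a-5p. A read that stops before this base fits both. MiR-99b-5p differed from miR-99a-5p at 4 bases (A1C, U11A, U16C and U21C). MiR-125a-5p and miR-125b-5p had the seed CCCUGAG and were identical over their first 13 bases. This seed was found in 3 other miRNAs, of which miR-6367 and miR-6394 had no count in any library, so miR-351-5p was the sole counted one. The minor arms of miR-99a and miR-99b shared the seed AAGCUCG, whereas each miR-125 minor arm had a seed of its own. MiR-125b-1-3p and miR-125b-2-3p differed at 5 bases, 3 of them in the seed (G3A, G4A and U7C).

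The chromosome 9 cluster (chr9:41531425-41582002, plus strand) holds Mir100, Mirlet7a-2 and Mir125b-1 within 50.58 kb, in introns of the long non-coding RNA gene Mir100hg. Mir125b-1 also lies in an exon of the long non-coding RNA gene Gm28119, and Mir100 and Mir125b-1 face exons of Gm48742 and Gm69589 on the other strand. The chromosome 16 cluster (chr16:77598936-77646339, plus strand) holds Mir99a, Mirlet7c-1 and Mir125b-2 within 47.4 kb, in introns of Mir99ahg. The chromosome 17 cluster (chr17:17830194-17830879, plus strand) packs Mir99b, Mirlet7e and Mir125a into 0.69 kb of the protein-coding gene Spaca6, with Mir125a over an exon and the others in introns. Mature miR-125b-5p is the same from chromosomes 9 and 16, so only its 3p arms tell these loci apart. Likewise, let-7c-5p and let-7a-5p also come from hairpins on chromosomes 15 and 13.

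The libraries held 20363495 to 53126984 counts. The muscle miRNA miR-1a-3p together with miR-1b-5p made up 24.15% to 46.27% of a library at P1, P5 and P14 and 79.59% to 85.32% at P90. The 10 members summed to 1.114% to 1.673% of the counts over the P1 and P5 libraries, 2.3% to 3.088% at P14 and 0.2867% to 0.5335% at P90. Of the counts left after taking out the miR-1 arms, they made up 2.074% to 2.516%, 3.501% to 4.072% and 1.953% to 2.614%. The way in which P90 libraries are scaled therefore decides the direction of many changes at P90. The scaling factors (TMM) were 1.235 to 1.725 before P90 and 0.2469 to 0.3841 at P90, and levels below are TMM-normalized CPM, that is, counts scaled to library size, with all members 21 to 24 bases long. P14 and P90 libraries also stood apart in base composition. Relative to the mean of all 12 libraries, levels changed by 0.366 to 0.55 log2 units per 10 points of GC content in the P14 libraries and by -0.321 to -0.544 in the P90 libraries, but by at most 0.0519 in either direction at P1 and P5. The part of either difference in the results was not tested beyond the alternatives given.

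All 4 skeletal muscle markers were present at every age. Between P1 and P90, miR-1a-3p, miR-133a-3p and miR-486a-5p rose, while miR-206-3p fell from 17648 ± 1107 to 1288 ± 233 CPM (SD, n = 3). The 3 fibroblast markers (miR-199a-3p, miR-199a-5p and miR-214-3p) summed to 11122 to 13496 CPM (P1), 7903 to 10258 (P5), 4263 to 5720 (P14) and 1850 to 2635 (P90), and 3 of 3 fell between P1 and P90. The 2 endothelial markers summed to 3353 to 4367 CPM at P1 and 9661 to 12990 at P90, and the 2 smooth muscle markers to 16760 to 19740 and 57060 to 73287. These rises turned to falls with library totals alone. On that scale the means at P1 and P90 were 5453 and 3535 CPM for miR-126a-3p and 27872 and 20988 for miR-143-3p. The fibroblast marker miR-199a-3p fell on both scales (11968 and 536 CPM with library totals). The 5 blood cell markers summed to 434 to 609 CPM at P1 and 549 to 705 at P90, but went different ways. Of them, 2 were called as rising and 2 as falling between these ages (25.2% and 41.2% of all miRNAs). With library totals alone, miR-451a fell from 357 to 107 CPM and miR-150-5p rose from 17.4 to 51.3. Libraries of 1 age differed in the liver marker miR-122-5p (44.2 to 366 CPM at P1) and in the 2 neuronal markers (84.9 to 342 at P5). No marker of these lists was at 0 in any library. In whole muscle, fewer cells of a type and less RNA per cell cannot be told apart, and the part of these cells in the results was not tested.

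MiR-125b-5p was the most abundant member at every age. It ranked 29 of 809 by its mean level, followed by miR-125a-5p (41), miR-99a-5p (50), miR-99b-5p (74) and miR-100-5p (87). At P1 the levels of miR-125a-5p (1618 to 2035 CPM), miR-99a-5p (1451 to 1752) and miR-99b-5p (1343 to 1520) overlapped from each to the next. By P90 the order was miR-125b-5p, miR-99a-5p, miR-125a-5p, miR-100-5p and miR-99b-5p, with no overlap between neighbours. The 3p arms were far less abundant, with mean levels of 11.4 to 45.6 CPM, except that miR-99a-3p had 1 to 19 counts per library. The 3p arm of Mir100 was no member and had 10 to 82 counts.

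**Figure D1:**
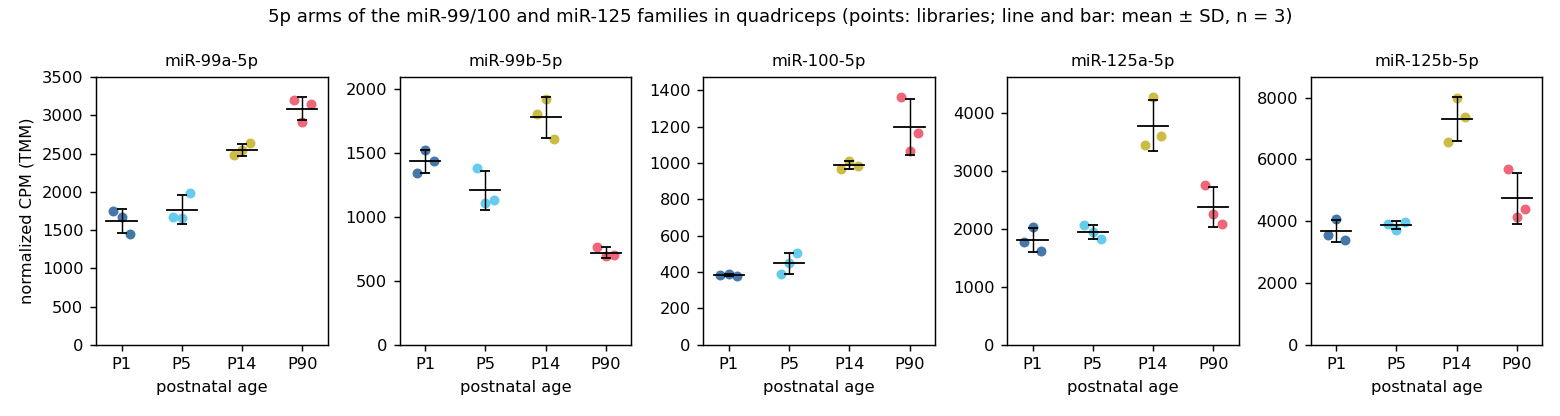
Levels of the 5p arms in each of the 12 libraries, in TMM-normalized CPM on a linear axis from 0, against postnatal age. Horizontal lines and bars are means and SDs of 3 libraries. MiR-99a-5p and miR-100-5p are highest at P90, miR-125a-5p and miR-125b-5p at P14, and miR-99b-5p is lowest at P90. With library totals alone, each of them is lower at P90 than at P14, and with upper-quartile factors each is higher.

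Across the 4 ages, 8 of 10 members were called (edgeR, Padj under 0.05), compared with 72.4% of all miRNAs tested. The members without a call were miR-99a-3p (Padj = 0.0617) and miR-125b-2-3p (Padj = 0.0869). Both were called with DESeq2 and with RLE size factors, which each called 10 of 10 members (75.4% and 73.5% of all miRNAs). Between P1 and P5, edgeR called 0 members, compared with 2.72% of all miRNAs rising and 1.73% falling. None had an unadjusted p under 0.05, and DESeq2 also called 0, compared with 9.64% of all miRNAs. The 95% intervals of the log2 fold change (log2FC) were -0.13 to 0.38 for miR-99a-5p, -0.52 to 0.02 for miR-99b-5p, -0.06 to 0.51 for miR-100-5p, -0.19 to 0.41 for miR-125a-5p and -0.22 to 0.37 for miR-125b-5p.

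Between P5 and P14 each of the 5p arms rose (miR-99b-5p not with the GC trend removed), together with miR-125a-3p, while miR-99a-3p was called as falling on its few counts. Thus 6 of 10 members rose, compared with 18.0% of all miRNAs, and 1 fell, compared with 26.3%. The median log2FC was 0.54 over the members and -0.07 over all miRNAs. With the GC trend removed, 4 rose and 2 fell (42.8% of all miRNAs called), and these medians were 0.01 and -0.20. Against P1, 5 of 10 members were higher at P14 (20.3% of all miRNAs) and 0 were lower (28.8%). With the GC trend removed it was 4 and 2, where 47.2% of all miRNAs were called. The rises of miR-99a-5p, miR-100-5p, miR-125a-5p and miR-125b-5p between P5 and P14 were called under each of the 21 alternatives that scaled, filtered, corrected or left out libraries.

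Among the miR-125 guides, miR-125b-5p was at 3551, 4077 and 3401 CPM (P1), 3914, 3727 and 3959 (P5), 6572, 7985 and 7370 (P14) and 5685, 4142 and 4407 (P90). All P14 libraries were above all others. The log2FC was 0.92 ± 0.14 (SE) for P14 versus P5 (edgeR, Padj = 6.61e-05) and 0.99 ± 0.14 for P14 versus P1 (Padj = 2.27e-05). MiR-125a-5p, which has the same seed but comes from chromosome 17, was at 1777, 2035 and 1618 CPM (P1), 2079, 1944 and 1834 (P5), 3458, 4286 and 3610 (P14) and 2762, 2268 and 2096 (P90). It took the same course, with a log2FC of 0.96 ± 0.14 for P14 versus P5 (Padj = 5.5e-05). At P90 both lay below P14, by log2FC of -0.62 ± 0.14 (Padj = 0.00108) and -0.67 ± 0.14 (Padj = 0.00067). These falls were lost with RLE size factors (-0.26 and -0.31) and turned to rises with upper-quartile factors (0.95 and 0.91). The fall of miR-125b-5p was also lost in a fit of these ages alone.

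Within each library, miR-125a-5p kept nearly the same ratio to miR-125b-5p. Their count ratio was 0.492 ± 0.014 (SD, n = 3, P1), 0.505 ± 0.037 (P5), 0.518 ± 0.025 (P14) and 0.503 ± 0.039 (P90). It stayed between 0.463 and 0.548 in all 12 libraries. An exact permutation test over the 15400 ways to divide 12 libraries into 4 groups of 3 gave p = 0.763, and the log2 difference between P90 and P1 was 0.03 (95% interval -0.13 to 0.19). Such a ratio does not depend on the scaling of the libraries. Of 16 ratios tested it was the only one with an adjusted p of 0.05 or more. The test, here and for each ratio below, compares the 4 ages together and tests no single pair of ages.

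In the miR-99/100 group, miR-99a-5p was at 1752, 1668 and 1451 CPM (P1), 1667, 1657 and 1984 (P5), 2479, 2542 and 2635 (P14) and 3207, 2916 and 3144 (P90). P14 lay above P1 and P5, and P90 above P14, without overlap. The log2FC was 0.53 ± 0.12 for P14 versus P5 (edgeR, Padj = 0.00223). MiR-100-5p, which differs from it by U16A, was at 382, 389 and 378 CPM (P1), 391, 448 and 506 (P5), 970, 1014 and 984 (P14) and 1364, 1066 and 1167 (P90). It had the largest rise of the members, with a log2FC of 1.14 ± 0.13 for P14 versus P5 (Padj = 5.93e-06). The further steps to P90 did not pass the test (log2FC 0.28 ± 0.12, Padj = 0.0616, and 0.28 ± 0.13, Padj = 0.0861). Both were called as rises in 5 of 9 alternatives of scaling, filter or model, and in 6 and 3 of 12 fits without 1 library, and as falls with library totals alone.

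MiR-99b-5p took another course. It was at 1343, 1520 and 1435 CPM (P1), 1383, 1109 and 1128 (P5), 1802, 1920 and 1606 (P14) and 766, 690.3 and 699.5 (P90). The P14 libraries were the highest and the P90 libraries the lowest, without overlap. The log2FC was 0.56 ± 0.13 for P14 versus P5 (edgeR, Padj = 0.00233) and -1.31 ± 0.13 for P90 versus P14 (Padj = 2.62e-07). With a GC content of 63.6%, compared with 50% for the other guides, it was the guide most affected when the trend with GC content was removed, which gave -0.13 for P14 versus P5 and 0.08 for P90 versus P14, neither called. With upper-quartile factors P90 versus P14 was at 0.27.

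Between P14 and P90, 2 of 10 members rose (22.4% of all miRNAs) and 6 fell (36.7%). The median log2FC was -0.65 over the members and -0.55 over all miRNAs. The members that fell were the 5p and 3p arms of miR-99b and miR-125a, miR-125b-5p and miR-125b-1-3p, and those that rose were miR-125b-2-3p and miR-99a-3p. With library totals alone 0 rose and 9 fell, where 79.9% of all miRNAs were called. With upper-quartile factors 6 rose and 0 fell, where 66.9% of all miRNAs were called. With RLE size factors 4 rose and 4 fell (member median -0.29, 59.5% of all miRNAs called). With the GC trend removed 4 rose and 3 fell (-0.0016, 55.5% of all miRNAs called), where miR-99b-5p, miR-99b-3p and miR-125a-3p lost their calls. The rise of miR-125b-2-3p (log2FC 0.41 ± 0.17, Padj = 0.0453) was also lost with totals without the miR-1 arms and held in 8 of 12 fits without 1 library. Relative to the median of all miRNAs, miR-99a-5p and miR-100-5p were higher at P90 than at P14 by 0.74 to 0.86 under the 5 ways of scaling, and miR-99b-5p was at -0.84 to -0.72. A scaling factor shifts members and median alike, so this agreement over the 5 ways was fixed in advance.

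Over the whole course, from P1 to P90, 5 of 10 members were called as rising (25.2% of all miRNAs) and 3 as falling (41.2%). The median log2FC was 0.38 over the members and -0.72 over all miRNAs. The largest rise was that of miR-100-5p (log2FC 1.65 ± 0.14, edgeR, Padj = 1.91e-08), followed by miR-99a-5p (0.93 ± 0.12, Padj = 5.03e-06). With library totals alone both turned to falls (-0.61 and -1.33). The other rises were small, namely 0.41 ± 0.17 for miR-125b-2-3p (Padj = 0.0427), 0.39 ± 0.14 for miR-125a-5p (Padj = 0.0218) and 0.37 ± 0.14 for miR-125b-5p (Padj = 0.0275). These 3 calls were lost without P1 replicate 1 or without P90 replicate 1, which left 5 members called (57.9% and 59.3% of all miRNAs). The 3 fold changes turned negative with library totals, with or without the miR-1 arms. The call of miR-125b-2-3p held in 2 of 12 fits without 1 library.

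The members called as falling between P1 and P90 were miR-99b-5p (log2FC -0.995 ± 0.13, edgeR, Padj = 4.6e-06), miR-99b-3p (-1.70 ± 0.17, Padj = 1.77e-07) and miR-125b-1-3p (-1.26 ± 0.17, Padj = 8.45e-06). With upper-quartile factors they were at 0.89, 0.19 and 0.63. The median of all miRNAs itself moved from -0.72 (TMM) to -0.37 (RLE), -1.06 (totals without the miR-1 arms), -2.97 (totals) or 1.177 (upper quartile). A scaling factor shifts members and median alike, so values relative to this median nearly agree under all 5 by construction. They place a member among all miRNAs and do not settle its own direction. Relative to this median, miR-100-5p was higher by 2.25 to 2.36 and miR-99a-5p by 1.53 to 1.64. MiR-125a-5p and miR-125b-5p were higher by 0.97 to 1.12. MiR-99b-5p was at -0.39 to -0.28, miR-99b-3p at -1.10 to -0.99 and miR-125b-1-3p at -0.66 to -0.54.

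**Figure D2:**
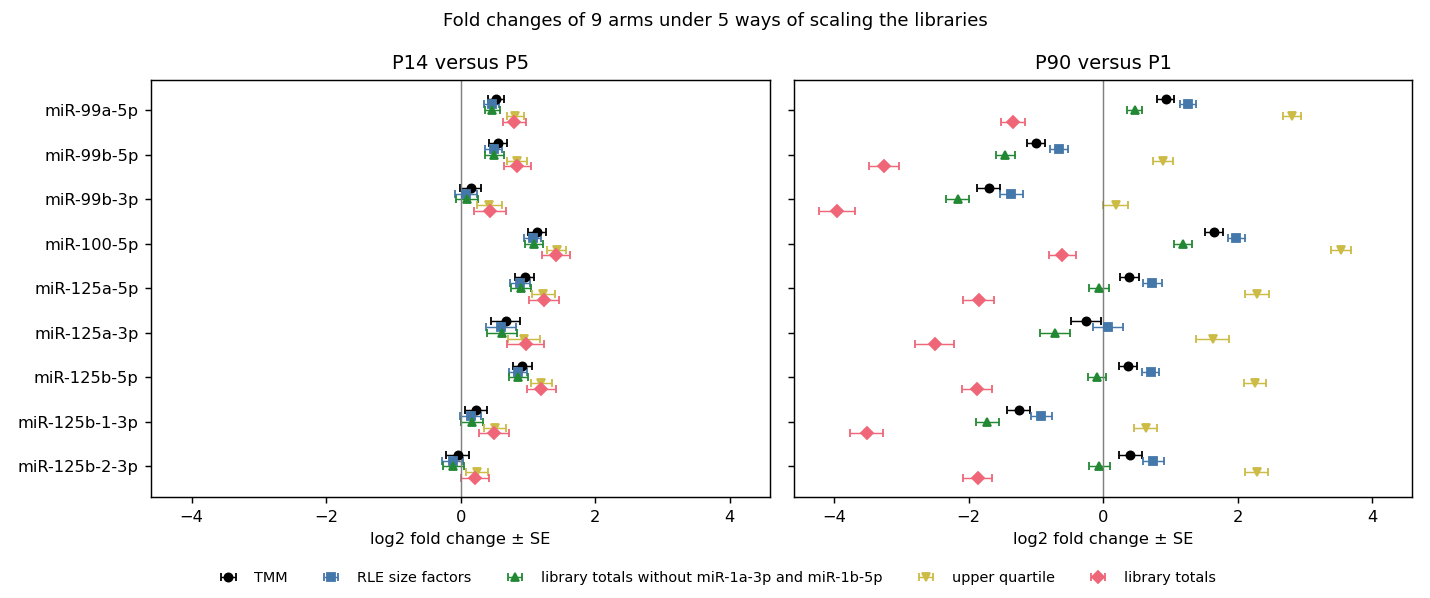
Log2 fold changes with SE of 9 members (miR-99a-3p is left out for its few counts) for P14 versus P5 and P90 versus P1, under 5 ways of scaling the libraries, marked by colour and shape. For P14 versus P5 the symbols of a member lie close together. For P90 versus P1 they shift together from upper-quartile factors on the right to library totals on the left. The spacing between members is kept, since a scaling factor moves all members of a library alike.

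The 3p arms, which are mostly degraded after the hairpin is cut, lay at different distances from their guides in course. The root mean square distance of centred log2 levels between 3p and 5p arm was 0.309 for miR-99b and 0.313 for miR-125a. It was 0.467 for miR-125b-2-3p, 0.649 for miR-125b-1-3p and 0.524 for miR-99a-3p with its few counts. These distances were not particular to arms of the same hairpin. MiR-99b-3p and miR-125b-1-3p were closer to each other (0.217) than to their guides. MiR-125b-2-3p was closer to miR-99a-5p (0.295), and miR-99a-3p to miR-125b-2-3p (0.330). MiR-125a-3p was about as close to miR-125b-5p (0.309) as to its own guide. MiR-99b-3p was at 32.3 to 36.4 CPM on average before P90 and at 11.2 ± 1.5 CPM (SD, n = 3) at P90, where its libraries had 129 to 215 counts. MiR-125a-3p rose between P5 and P14 (log2FC 0.67 ± 0.22, edgeR, Padj = 0.0196), a call that was lost without P5 replicate 1, P5 replicate 3 or P14 replicate 2, without the filter and with the GC trend removed. For P90 versus P1 it did not pass the test (-0.26 ± 0.22, Padj = 0.315). MiR-99a-3p had 2, 12 and 10 counts (P1), 17, 19 and 19 (P5), 1, 6 and 1 (P14) and 6, 9 and 4 (P90). Its call as falling between P5 and P14 (Padj = 0.026) held in 6 of 12 fits without 1 library, and its call as rising to P90 (Padj = 0.0337) in 3 of 12.

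**Figure D3:**
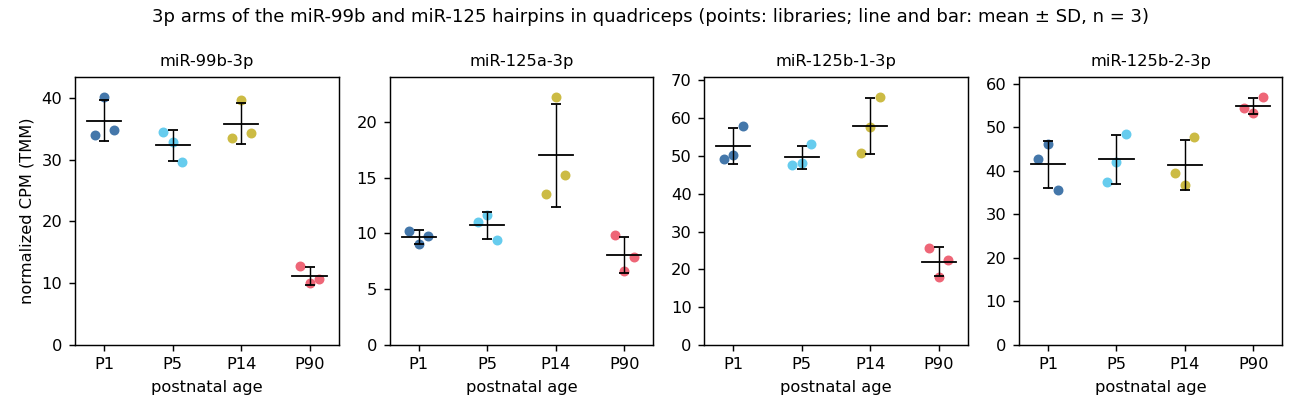
Levels of the 3p arms of the miR-99b and miR-125 hairpins in each library, in TMM-normalized CPM on a linear axis from 0, against postnatal age, with means and SDs of 3 libraries. MiR-99b-3p and miR-125b-1-3p lie lower in all P90 libraries than in any other library, and miR-125b-2-3p lies higher. The sign of these differences between P1 and P90 turns with upper-quartile factors for the former and with library totals for the latter.

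The 3p arms of miR-125b separate its 2 loci. MiR-125b-1-3p, from chromosome 9, was at 49.3, 50.3 and 58.0 CPM (P1), 47.5, 48.1 and 53.2 (P5), 50.8, 57.7 and 65.6 (P14) and 25.6, 18.0 and 22.4 (P90). MiR-125b-2-3p, from chromosome 16, was at 42.8, 46.1 and 35.6 CPM (P1), 37.3, 42.1 and 48.4 (P5), 39.5, 36.6 and 47.8 (P14) and 54.5, 53.4 and 57.0 (P90). On this scale all P90 libraries lay below all others for the first arm and above them for the second. Within each library, the count of the chromosome 9 arm over that of the chromosome 16 arm was 1.29 ± 0.29 (SD, n = 3, P1), 1.17 ± 0.09 (P5), 1.41 ± 0.15 (P14) and 0.400 ± 0.067 (P90). It was 1.09 to 1.63 in the 9 younger libraries and 0.337 to 0.471 in the adult ones, a log2 difference of -1.68 between P90 and P1 (95% interval -2.09 to -1.27). The exact permutation test gave p = 0.006429 (Padj = 0.008571 over the 16 ratios). With the GC trend removed the difference was -1.27. The adult values rest on 269 to 431 counts of the chromosome 9 arm and 684 to 1007 of the chromosome 16 arm.

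Between P1 and P90 the 5p arm gained on the 3p arm of miR-99b, miR-100 and miR-125a, and on the summed 3p arms of miR-125b. For miR-99b the ratio of 5p to 3p counts was 39.5 ± 1.7 (SD, n = 3, P1), 37.3 ± 3.2 (P5), 49.6 ± 3.6 (P14) and 64.8 ± 4.7 (P90), a log2 difference of 0.71 between P90 and P1 (exact permutation test, Padj = 0.001299). For miR-125a it was 188 ± 33 at P1 and 297 ± 40 at P90 (0.66, Padj = 0.01279), and the log2 difference was 0.25 with the GC trend removed. For miR-125b, with both 3p arms summed, the ratio was highest at P14, at 39.1 ± 3.0, 42.1 ± 3.7, 74.1 ± 9.9 and 61.5 ± 8.3 in order of age (Padj = 0.002226). This sum joins unlike arms. For P90 versus P1 the log2FC was 0.37 for miR-125b-5p, 0.41 for miR-125b-2-3p and -1.26 for miR-125b-1-3p. The 5p arm of miR-125b thus gained on miR-125b-1-3p and not on miR-125b-2-3p. For miR-100 it was 414 ± 41 at P1 and 1277 ± 640 at P90, over 10 to 23 counts of the 3p arm in the latter. The ratio for miR-99a was set by single counts and took the opposite sign without P1 replicate 1.

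Within the seed groups, the make-up of the miR-99/100 counts changed with age. MiR-99b-5p held 41.7 ± 2.8% (SD, n = 3, P1), 35.3 ± 4.6% (P5), 33.4 ± 2.3% (P14) and 14.4 ± 0.4% (P90). MiR-100-5p held 11.2 ± 0.4%, 13.09 ± 1.5%, 18.6 ± 0.2% and 23.9 ± 1.5%. MiR-99a-5p held 47.2 ± 3.0%, 51.6 ± 3.2%, 48.0 ± 2.1% and 61.7 ± 1.5%. The ratio of miR-99b-5p to the sum of the other two fell by 2.09 log2 units between P1 and P90 (exact permutation test, Padj = 0.002468), and by 1.48 with the GC trend removed. MiR-100-5p gained on miR-99a-5p between P5 and P14. Their ratio was 0.218 to 0.271 in the 6 libraries of P1 and P5 and 0.366 to 0.425 in those of P14 and P90 (Padj = 0.005289).

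In the miR-125 seed group, miR-351-5p, from a hairpin on the X chromosome, held 40.5 ± 2.1% of the counts (P1), 34.6 ± 1.7% (P5), 20.4 ± 1.6% (P14) and 1.15 ± 0.13% (P90). It was at 3718 ± 226 CPM (SD, n = 3) at P1 and at 82.8 ± 14.6 CPM at P90 (log2FC -5.49 ± 0.17, edgeR, Padj = 2.6e-13). MiR-125b-5p went from 39.9 ± 1.4% to 65.8 ± 1.6% and miR-125a-5p from 19.6 ± 0.8% to 33.1 ± 1.7%. The ratio of miR-351-5p to the miR-125 guides was 0.617 to 0.734 (P1), 0.487 to 0.567 (P5), 0.233 to 0.282 (P14) and 0.0105 to 0.0131 (P90). The exact permutation p of 6.494e-05 was the smallest that the 15400 partitions can give.

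**Figure D4:**
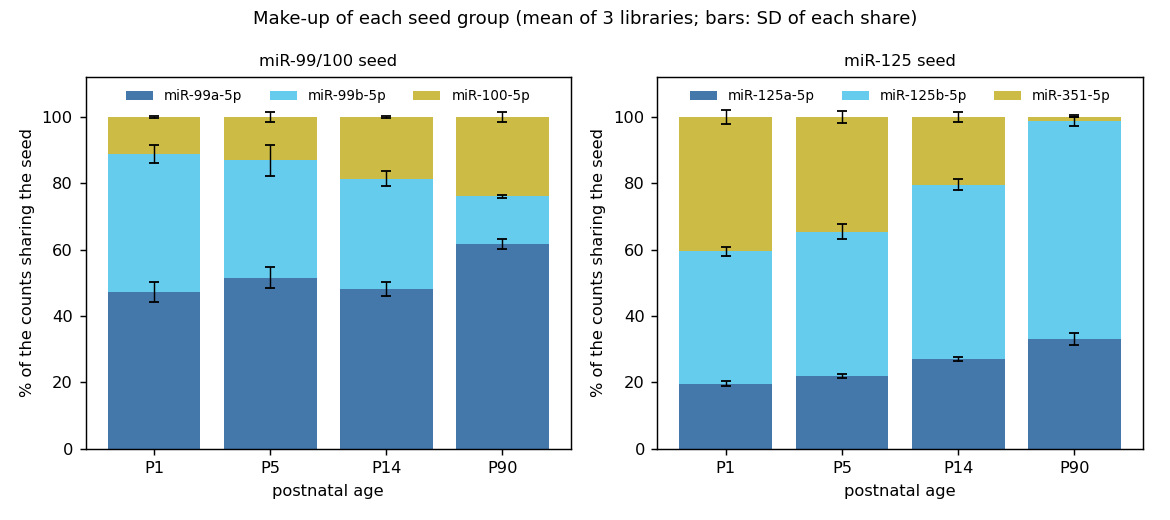
Share of each mature miRNA, in percent, in the counts that have the miR-99/100 seed (left) or the miR-125 seed (right) at each age. Bars are stacked means of 3 libraries and error bars are the SDs of each share. The share of miR-99b-5p goes from 41.7% to 14.4%, and that of miR-351-5p from 40.5% to 1.15%.

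Members of 1 cluster were then compared with their neighbours. On chromosome 17, miR-99b-5p over miR-125a-5p was 0.747 to 0.887 (P1), 0.571 to 0.665 (P5), 0.445 to 0.521 (P14) and 0.277 to 0.334 (P90). No pair of ages overlapped, and the log2 difference between P90 and P1 was -1.38 (95% interval -1.63 to -1.14, exact permutation test, Padj = 0.0005195). With the GC trend removed it was -0.77. MiR-125a-5p also gained on let-7e-5p, which lies between them, with ratios of 2.61 ± 0.24 (SD, n = 3) at P1 and 4.94 ± 0.48 at P90. The log2 difference was 0.92 (95% interval 0.63 to 1.20), with Padj = 0.001385 across ages. MiR-99b-5p over let-7e-5p was 2.07 ± 0.08 (P1), 1.52 ± 0.01 (P5), 1.60 ± 0.30 (P14) and 1.50 ± 0.10 (P90), with Padj = 0.02958. The log2 difference of -0.47 between P90 and P1 became 0.56 with the GC trend removed. Leaving out P1 replicate 1, P1 replicate 3 or P90 replicate 3 ended the call across ages (Padj 0.07273, 0.06296 and 0.05029).

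On chromosome 16, miR-99a-5p over let-7c-5p was lowest at P14, with 0.362 ± 0.029 (SD, n = 3, P1), 0.261 ± 0.027 (P5), 0.174 ± 0.026 (P14) and 0.391 ± 0.063 (P90), and the exact permutation test gave Padj = 0.001385. On chromosome 9, miR-100-5p over let-7a-5p was 0.0428 ± 0.0019 at P1 and 0.0883 ± 0.0018 at P90 (Padj = 0.001299), a log2 difference of 1.05 that became 1.66 with the GC trend removed. Both let-7 guides have a second locus, which the counts do not separate. Over the families, the miR-99/100 guides summed to 0.629 ± 0.038 of the miR-125 guides (P1), then 0.588 ± 0.031 (P5), 0.482 ± 0.039 (P14) and 0.711 ± 0.071 (P90), with Padj = 0.002771.

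**Figure D5:**
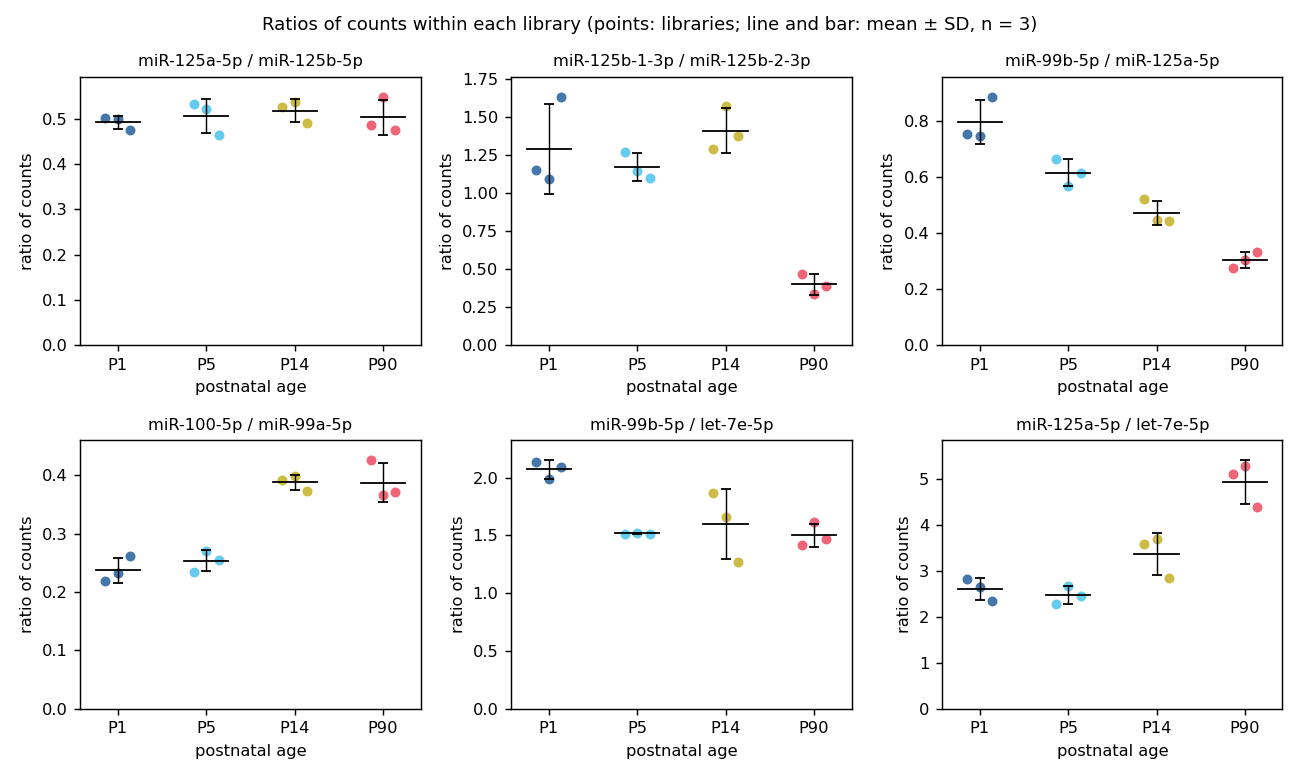
Ratios of counts within each of the 12 libraries on a linear axis from 0, against postnatal age, with means and SDs of 3 libraries. MiR-125a-5p over miR-125b-5p stays near 0.5 at every age, the ratio of the miR-125b 3p arms is lower in all P90 libraries, and miR-99b-5p over miR-125a-5p is lower at each later age.

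The let-7 arms of the same clusters, which are mostly known for promoting differentiation, gave 6 tested arms. Between P5 and P14, 4 of 6 rose and 1 fell (18.0% and 26.3% of all miRNAs), and between P14 and P90, 0 rose and 5 fell (22.4% and 36.7%). Among them, let-7c-5p went from 6795 ± 311 CPM (SD, n = 3, P5) to 14944 ± 2407 (P14) and 8083 ± 1715 (P90). The 6 let-7 guides of other loci gave 2 that rose and 4 that fell between P5 and P14, and 4 that rose and 1 that fell between P14 and P90, against the same shares of all miRNAs. Of these, let-7b-5p rose to P14 (log2FC 1.53 ± 0.16, edgeR, Padj = 2.73e-06), while miR-98-5p fell (-1.29 ± 0.16, Padj = 1.29e-05). These directions rest on TMM factors. On that scale let-7f-5p, of the other loci, rose from 11084.3 CPM (P14) to 27224.5 CPM (P90). With library totals alone it fell from 16929 to 8780 CPM, and let-7g-5p fell from 9970 to 4909. Let-7c-5p fell on both scales, with library totals from 23130 to 2706 CPM. Fold changes of let-7 arms with the GC trend removed are not given here. The groups also differ in kind. The first includes 3p arms, among them let-7a-2-3p with 2 to 36 counts at P14, and the second holds guides only. The difference between the let-7 groups was not tested.

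Among 201 miRNAs that were no members and had a mean of at least 100 CPM, those closest in course over the 12 libraries were found by the root mean square distance of centred log2 levels. They were miR-23a-3p for miR-99a-5p (distance 0.145 log2 units), miR-484 for miR-99b-5p (0.129), miR-151-5p for miR-100-5p (0.128) and miR-423-3p for miR-125a-5p (0.139) and miR-125b-5p (0.121). MiR-181a-5p and let-7a-5p came next for both miR-125 guides. The miR-125 guides were closer to each other (0.0754) than to any of these. The distance between miR-99a-5p and miR-100-5p was 0.343, and that between miR-99b-5p and miR-100-5p was 1.01.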

How the data were processed

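Small RNA of mouse quadriceps was sequenced from 200 ng total RNA in 12 libraries. The authors selected reads of 10 to 35 nt with cutadapt (v1.18), aligned them to GRCm38 with Bowtie2 (v2.4.1) and counted them with featureCounts (v2.0.1) on miRBase release 22. The deposited table holds raw counts per mature miRNA. Strand and multi-mapping options of the counting are not given in the sources used here. Such options and short reads can move counts between paralogs.

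Counts were tested with edgeR (v4.0.16, R v4.3.3) by quasi-likelihood F-tests (2-sided). TMM factors, filterByExpr over the 4 ages and a mean for each age were used on all 12 libraries, and p-values were adjusted by Benjamini-Hochberg over the 809 miRNAs tested. SEs were derived from the F statistic, and 95% intervals from the spread pooled over ages. The GC trend was fitted in each library on 294 miRNAs with mature sequences. Within-library ratios of counts were compared across ages by enumerating all partitions of the libraries (exact permutation of the sum of squares between ages), with adjustment over 16 ratios. The scripts were tested on simulated data. The members, lists, ratios and tests were chosen with earlier results of these data known. Named miRNAs were the 10 members, their cluster partners and seed relatives, other let-7 guides and, for each 5p member, the 3 closest in course. Alternatives comprised other scalings, DESeq2 (v1.42.0), no filter, 2 ages only, a replicate block, removal of the GC trend and leaving out each library. No replicate pair differed by less than sampling noise.

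Mature sequences and hairpin positions were from RefSeq (GRCm38.p6), matched by name for 1675 of 1966 miRNAs, and host genes from GENCODE vM39, without its coordinates.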

Additional observations from a re-analysis of the deposited data

How the results depend on the processing

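The members called kept within 1.5 times of the main count in each comparison and alternative but P90 versus P1. There 8 became 5 without the filter on low counts, while the share of all miRNAs called went from 66.4% to 34.8%. Without 1 library the count was 5 to 8. It was 5 without P1 replicate 1 (57.9% of all miRNAs) or without P90 replicate 1 (59.3%). These counts pool rises and falls. For P90 versus P1, 5 rose and 3 fell with TMM factors. With library totals 0 rose and 9 fell (84.4% of all miRNAs called), and with upper-quartile factors 9 rose and 0 fell (72.1%). Values below are log2FC. For P90 versus P1, library totals gave -1.33 for miR-99a-5p, -0.61 for miR-100-5p, -1.85 for miR-125a-5p, -1.88 for miR-125b-5p and -1.87 for miR-125b-2-3p. Totals without the miR-1 arms gave -0.062, -0.091 and -0.055 for the last 3. Upper-quartile factors gave 0.89 for miR-99b-5p, 0.19 for miR-99b-3p, 1.63 for miR-125a-3p and 0.63 for miR-125b-1-3p. For P90 versus P14, library totals gave -1.96 for miR-99a-5p, -1.95 for miR-100-5p and -1.82 for miR-125b-2-3p. Upper-quartile factors gave 0.27 for miR-99b-5p, 0.91 for miR-125a-5p, 0.50 for miR-125a-3p, 0.95 for miR-125b-5p and 0.17 for miR-125b-1-3p. Removal of the GC trend gave -0.13 for miR-99b-5p and -0.54 for miR-99b-3p (P14 versus P5), -0.35 for miR-99b-5p (P14 versus P1) and 0.077 for it (P90 versus P14). Shifts between scalings moved all members by nearly the same amount. The cause of the other changes was not tested.

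The GC correction of the ratios was chosen after seeing the data. Of 16 ratios it reversed miR-99b-5p over let-7e-5p (log2 difference 0.56), which was between -0.52 and -0.43 without 1 library. MiR-99a-5p over miR-99a-3p was between -0.75 and 0.35 without 1 library, on 1 to 19 counts of the 3p arm. Replicate numbers did not pair the samples. Deviations of same-numbered libraries correlated at -0.35 to 0.27 (median 0.05), and those of other numbers at -0.38 to 0.42. With a replicate block, 8 members were called across ages, 0 for P5 versus P1 and 5 for P14 versus P1, and 7 in each of the other comparisons, and miR-99b-5p over let-7e-5p was not called (log2 difference -0.47, Padj = 0.0537). The rises of miR-125b-2-3p to P90, from P14 and from P1, were not called either.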
